A study of Mus musculus with 4 samples.

Results

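The regions described here lie at the ends of mouse genes and hold a peak in every library of a CUT&RUN experiment on medullary thymic epithelial cells. CUT&RUN recovers short DNA fragments that a protein A-MNase fusion releases around an antibody bound in permeabilised cells. Cells came from thymi of 4 to 5 week old mice that carried wild-type Trp53, which encodes p53, and no strain is named. After enrichment for the epithelial surface protein EpCAM they were sorted into mTEClo and mTEChi, in common usage the less and the more mature medullary cells, and each condition used 500000 cells. Each population had 2 libraries, numbered as replicates, and the labels do not say whether the replicates came from separate mice. By the titles of the samples the antibody was against p53, but by the protocol it was against BAF155, which belongs to the BAF remodelling complex of chromatin. The labels do not settle which protein the peaks mark, and no control antibody or p53-deficient library was analysed here.

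Peaks of the 4 libraries, each a summit with 150 bp on either side, were joined into regions wherever they shared at least 1 bp. On chromosomes 1 to 19 this gave 258125 regions, and 5140 of them held a peak in all 4 libraries. The 2601 regions of this report were chosen by these measured peak calls together with position: a peak in all 4 libraries, and a midpoint within 1 kb of either end of a protein-coding gene. A further 1373 regions found in all 4 libraries lay inside genes and 1166 lay between genes. Presence in the 4 libraries is therefore not a finding, and neither is nearness to a gene end.

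By way of background, most mammalian genes that are active in many tissues start in a CpG island, a stretch of DNA that keeps many CG dinucleotides. The DNA just upstream of such starts carries short recurring elements: the GC box bound by Sp and Klf factors, the CCAAT box bound by the heterotrimer NF-Y, and elements for ETS factors, NRF1, CREB, ZNF143 and YY1. NF-Y contains a pair of histone-like subunits and bends the DNA it binds, and several of its boxes often stand side by side in cell cycle and histone promoters. p53 binds a different element made of 2 similar half-sites, and it lowers many cell cycle genes through p21 and the DREAM complex, which sits at their promoters.

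Promoters of 10 genes with such a region are shown to let the elements be seen in place: 8 for their CCAAT boxes, and 1 each for the NRF1 element and the CGCG palindrome, with genes taken from the best-ranked regions, the divergent pairs and the gene lists described further on. Each sequence is the 250 bases before the transcript start, from RefSeq, read 5′ to 3′ on the gene's own strand in build GRCm38.p6, which is mm10. Capitals mark CCAAT or its reverse complement ATTGG in the first 8. In Snrnp70 they mark the NRF1 letters, and in Mdh2 the CGCG palindrome. Zfp869, a zinc finger gene, is shown at chr8:69716903-69717152 on the minus strand. Zfand2a, whose protein binds the proteasome under arsenite stress, is shown at chr5:139484492-139484741 on the minus strand. Uvrag, an autophagy gene, is shown at chr7:99141145-99141394 on the minus strand. Eif2ak3, the kinase PERK of the unfolded protein response, is shown at chr6:70844265-70844514 on the plus strand. Atp5b, the beta subunit of ATP synthase, is shown at chr10:128083057-128083306 on the plus strand. H2bc12, a histone H2B gene, is shown at chr13:22035571-22035820 on the plus strand. Aen, a p53-activated nuclease gene of apoptosis, is shown at chr7:78895677-78895926 on the plus strand. H2-Aa, an MHC class II chain, is shown at chr17:34287824-34288073 on the minus strand. Snrnp70, a protein of the U1 spliceosomal particle, is shown at chr7:45395743-45395992 on the minus strand. Mdh2, the mitochondrial malate dehydrogenase, is shown at chr5:135778399-135778648 on the plus strand.
Zfp869: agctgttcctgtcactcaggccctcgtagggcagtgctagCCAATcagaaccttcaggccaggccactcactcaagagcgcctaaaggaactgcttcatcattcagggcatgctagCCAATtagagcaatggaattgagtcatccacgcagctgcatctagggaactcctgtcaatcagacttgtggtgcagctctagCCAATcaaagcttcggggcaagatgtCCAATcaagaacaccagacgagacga
Zfand2a: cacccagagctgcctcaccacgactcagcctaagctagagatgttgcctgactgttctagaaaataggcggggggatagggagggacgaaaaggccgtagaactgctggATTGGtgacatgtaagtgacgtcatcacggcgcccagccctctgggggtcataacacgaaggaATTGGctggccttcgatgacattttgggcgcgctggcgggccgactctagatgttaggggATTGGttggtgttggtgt
Uvrag: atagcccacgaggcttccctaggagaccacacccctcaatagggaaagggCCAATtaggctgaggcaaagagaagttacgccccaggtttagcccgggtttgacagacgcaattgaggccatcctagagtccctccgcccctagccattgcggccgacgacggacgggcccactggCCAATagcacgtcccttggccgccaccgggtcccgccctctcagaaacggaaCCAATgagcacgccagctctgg
Eif2ak3: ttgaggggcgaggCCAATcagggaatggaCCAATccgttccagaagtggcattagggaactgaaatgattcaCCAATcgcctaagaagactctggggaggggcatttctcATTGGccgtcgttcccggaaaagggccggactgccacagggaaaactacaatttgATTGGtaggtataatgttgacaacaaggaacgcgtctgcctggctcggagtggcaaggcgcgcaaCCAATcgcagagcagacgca
Atp5b: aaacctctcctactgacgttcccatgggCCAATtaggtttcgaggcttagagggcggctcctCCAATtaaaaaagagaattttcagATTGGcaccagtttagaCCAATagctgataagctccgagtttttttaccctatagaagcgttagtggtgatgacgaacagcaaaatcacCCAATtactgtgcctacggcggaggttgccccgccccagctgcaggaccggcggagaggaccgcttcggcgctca
H2bc12: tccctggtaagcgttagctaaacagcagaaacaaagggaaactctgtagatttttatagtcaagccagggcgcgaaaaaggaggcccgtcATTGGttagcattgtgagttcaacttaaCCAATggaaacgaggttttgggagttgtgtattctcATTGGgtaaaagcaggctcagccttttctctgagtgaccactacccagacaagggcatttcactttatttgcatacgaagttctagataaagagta
Aen: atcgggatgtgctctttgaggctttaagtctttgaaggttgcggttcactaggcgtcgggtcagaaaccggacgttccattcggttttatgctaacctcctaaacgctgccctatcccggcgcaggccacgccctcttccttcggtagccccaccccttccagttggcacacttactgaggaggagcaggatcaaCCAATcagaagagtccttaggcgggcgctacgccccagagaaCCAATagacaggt
H2-Aa: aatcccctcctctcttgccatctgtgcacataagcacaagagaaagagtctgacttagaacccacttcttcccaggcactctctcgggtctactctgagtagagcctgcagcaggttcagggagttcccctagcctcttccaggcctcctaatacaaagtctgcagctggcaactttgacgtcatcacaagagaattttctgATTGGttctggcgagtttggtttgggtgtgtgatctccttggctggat
Snrnp70: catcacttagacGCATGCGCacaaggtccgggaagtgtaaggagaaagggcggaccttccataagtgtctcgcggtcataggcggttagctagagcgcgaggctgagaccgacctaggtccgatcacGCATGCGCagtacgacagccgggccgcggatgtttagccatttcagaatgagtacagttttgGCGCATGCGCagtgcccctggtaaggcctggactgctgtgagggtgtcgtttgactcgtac
Mdh2: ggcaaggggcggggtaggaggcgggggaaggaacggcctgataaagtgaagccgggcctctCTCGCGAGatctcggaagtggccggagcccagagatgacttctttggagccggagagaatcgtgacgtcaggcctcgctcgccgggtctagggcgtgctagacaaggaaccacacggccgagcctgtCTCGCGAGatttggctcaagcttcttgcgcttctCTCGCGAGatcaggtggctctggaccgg

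Of the 8 promoters shown for their CCAAT boxes, all but that of H2-Aa hold more than 1. Where 4 values stand in a row, here and below, they are those of mTEClo replicate 1, mTEClo replicate 2, mTEChi replicate 1 and mTEChi replicate 2. Eif2ak3 held 6 CCAAT boxes in the 250 bases and Atp5b held 5. Zfp869 held 4, beginning at positions -210, -134, -52 and -26 from the start, where -1 is the last base before it. Its summits lay at -146, -150, -119 and -151, on either side of the box at -134. In Aen, with boxes at -55 and -13, the summits lay at -63, -51, -49 and -49, close to the box at -55. In Uvrag, with boxes at -200, -74 and -22, they lay at -208, -214, -201 and -203, so that in all 4 libraries the summit stood beside the box farthest from the start. H2-Aa held 1 box, at -48, and its summits at -87, -73, -83 and -97 stood upstream of it. Snrnp70 held no CCAAT box but 4 matches to the NRF1 letters, at -238, -123, -61 and -59, and its summits lay at -99, -119, -120 and -116. Mdh2 held the CGCG palindrome at -189, -62 and -28, with summits at -111, -130, -114 and -117, in none of the 4 libraries on a copy of it.

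Across all of the regions with a listed promoter the CCAAT box was common and often repeated. The promoter table, which holds 300 bases for each start (250 before and 50 after), has an entry whose start lies within 1 kb of 2126 of the 2601 regions, and these gave 2109 distinct promoters. The comparison set was the 17288 promoters whose gene had no such region, and shares are descriptions of these sets with no test. At least 1 CCAAT box stood in 54.6% of the member promoters, in 35.7% of those without a region and in 38.1% of all promoters in the table. At least 2 stood in 29.7% (627 promoters; 95% Wilson interval 27.8 to 31.7%) against 10.4%, and at least 3 in 13.7% against 2.43%. The same 5 letters in reverse order, TAACC, which have the same base composition, stood in 21.9% against 24.8%. The boxes had no preferred strand: 1126 of 2227 (50.6%) read as ATTGG on the gene's strand. Neighbouring boxes in member promoters were spaced a median of 44 bp apart, and 32 bp was the most frequent spacing, with 44 of 1075 neighbouring pairs. Spacings of 25 to 40 bp made up 30.4% of pairs in member promoters and 22.2% in the other promoters. In the latter the median spacing was 51 bp and the most frequent 3 bp. The sets were not matched for the number of boxes per promoter, which itself bears on spacing.

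Other elements of housekeeping promoters were also frequent, each searched on both strands. None of these strings contains another. The GC box, GGGCGG, stood in 72.8% of member promoters against 43.1% of promoters without a region and 47.0% of all. The ETS core, with the letters CCGGAAG, stood in 21.2% against 10.2% (11.9% of all). The NRF1 letters GCATGCGC stood in 7.25% against 2.98% (3.55% of all). For CREB, the element TGACGTCA stood in 4.65% against 1.89% (2.30% of all). For ZNF143, the letters ACTACAA stood in 7.30% against 3.15% (3.71% of all). For YY1, the letters AAGATGGC stood in 5.22% against 2.64% (3.06% of all). The E-box CACGTG stood in 10.8% against 7.44% (7.89% of all). The CGCG palindrome, CTCGCGAG, was added to the search after it had been seen repeated in the Mdh2 promoter, and stood in 3.79% against 0.787% (1.21% of all).

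The remaining elements were less frequent in member promoters than in the others when base composition was left aside. The TATA box, TATAAA, stood in 5.31% of member promoters against 13.9% of those without a region (12.7% of all). The AP-1 element, TGANTCA with N for any base, stood in 3.79% against 7.61% (7.06% of all). The p53 half-site stood in 6.07% against 7.54% (7.32% of all). A full p53 element, 2 half-sites with at most 13 bp between them, was found in 0 of the 2109 member promoters and in 9 of all 20085. A match is a string of letters and not a shown binding site, and no match says only that the letters are not in these 300 bases.

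Base composition differed between the same sets. The median observed to expected CpG ratio was 0.811 in member promoters and 0.491 in promoters without a region, and the median GC content was 61.3% and 55.7%. A ratio of 0.6 or more was reached by 85.6% of member promoters and 42.9% of the others. Within the promoters at or above that ratio the GC box no longer set the groups apart, at 76.5% of 1805 member promoters and 74.0% of 7422 others. The E-box likewise stood at 11.9% and 11.4%. The elements that had been less frequent drew close too, with the TATA box at 4.65% and 5.93% and AP-1 at 3.16% and 3.54%, and the p53 half-site turned to 5.82% and 5.60%. The ETS core stood at 22.6% and 18.6%, the ZNF143 letters at 7.15% and 3.02%, and the CGCG palindrome at 4.04% and 1.77%. For the NRF1 letters the shares were 8.14% and 5.89%, for the CREB element 4.82% and 3.30%, and for the YY1 letters 5.60% and 4.49%. The CCAAT box stood at 54.4% and 31.1%, and 2 or more boxes at 30.4% and 9.81%, a gap no narrower than in all promoters. The cut did not make GC content equal, with medians of 62.7% in these member promoters and 65.3% in the others. The reversed letters TAACC stood at 20.8% and 19.1%.

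**Figure D1:**
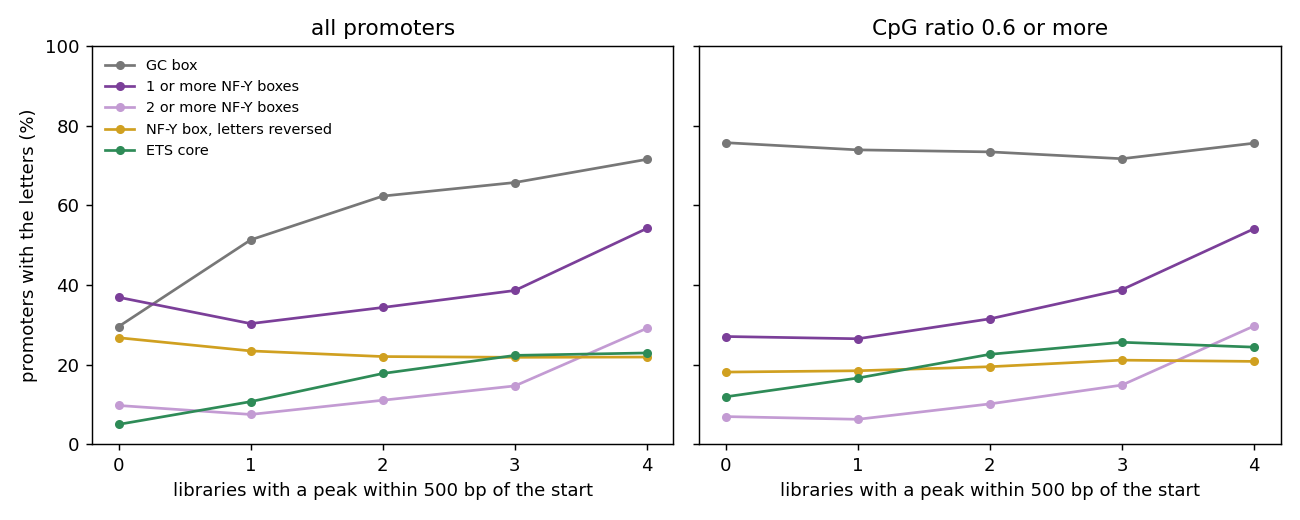
Share of promoters (y axis, %) with each element against the number of libraries with a peak within 500 bp of the start (x axis), for all promoters on the left and those with a CpG ratio of 0.6 or more on the right; NF-Y box stands for the CCAAT box. The share with 2 or more boxes goes from 9.73% with no library to 29.1% with 4 on the left and from 6.95% to 29.7% on the right, while the GC box is level on the right.

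The share of promoters with repeated CCAAT boxes was highest where all 4 libraries had a peak near the start. At least 2 boxes stood in 9.73% of the 9208 promoters with a peak within 500 bp in no library. The share was 7.48% with 1 library, 11.0% with 2, 14.6% with 3 and 29.1% of 2919 promoters with all 4. The widest step was the one from 3 libraries to 4. Among the regions themselves, split into 3 groups by their worst rank over the 4 lists, the best-ranked group held at least 2 boxes in 39.1% of 736 promoters, the middle in 29.3% of 714 and the last in 19.9% of 670. The GC box did not follow the rank in this way, at 74.5%, 70.9% and 73.0%, and the ETS core stood at 18.2%, 22.5% and 23.0%. Scores and the number of libraries are both part of how the regions were chosen, so these shares are a description.

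The CCAAT boxes lay close to the summits in all 4 libraries. Among the 1574 to 1594 regions per library whose best-scoring summit fell inside the promoter window, the nearest CCAAT box of those that had one lay a median of 32, 35, 33 and 31 bp away. The nearest GC box lay 39.5, 38.5, 42.5 and 42.0 bp away, although GC boxes were more numerous, and the nearest ETS core 69, 61, 72 and 71 bp. A box lay within 50 bp of the summit in 65.2%, 64.2%, 64.0% and 64.4% of the regions with a CCAAT box.

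**Figure D2:**
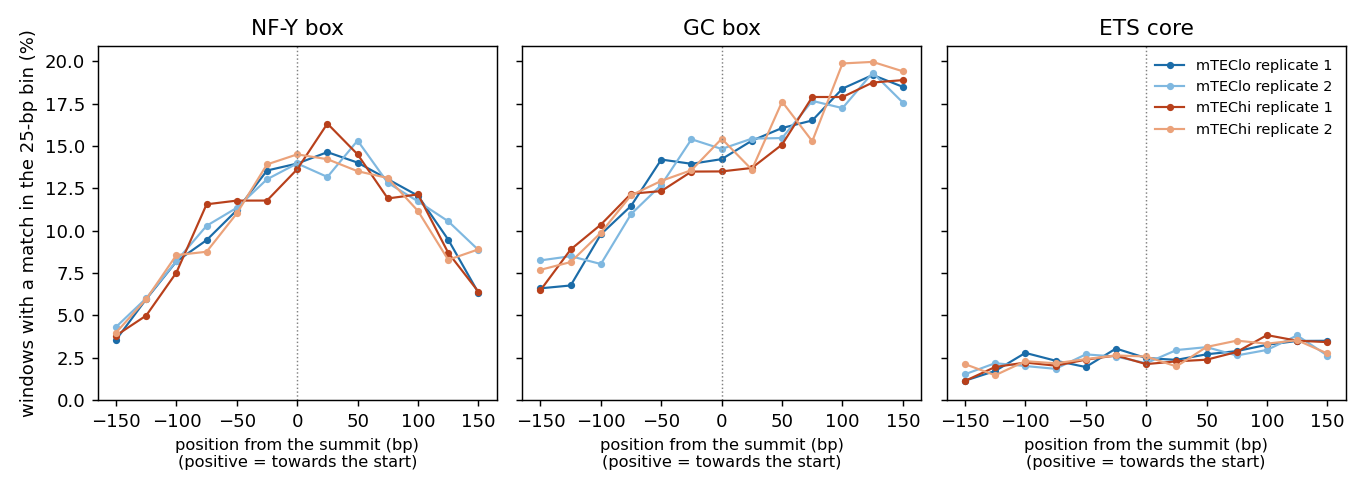
Share of windows with a match in each 25-bp bin (y axis, %) against distance from the best summit of each library (x axis, bp, positive towards the transcript start), for the CCAAT box (here NF-Y box), the GC box and the ETS core. CCAAT boxes peak within 50 bp of the summit, at 14.5% to 16.3% in the highest bin of each library, and fall away on both sides, while GC boxes go on rising towards the start.

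With summits upstream of the start, the CCAAT boxes lay nearer to the start where the summit did, and the GC boxes changed place less. In the 321 regions whose median summit lay 150 to 250 bp upstream of the start, the CCAAT boxes had a median position of -129. For the 402 regions with summits 100 to 150 bp upstream it was -93, for the 438 regions at 50 to 100 bp it was -74, and for the 350 regions in the last 50 bp it was -61. The median GC box stood at -76.5, -69, -68.5 and -68.5 in the same 4 groups, and the median ETS core at -78.5, -40, -50 and -36.5. Of those 4 groups of regions, 61.4%, 62.9%, 63.0% and 52.3% held a CCAAT box. In the 167 regions with summits in the first 50 bp after the start, 46.7% held one. There the median CCAAT box stood at -64 and the median GC box at -57, so that the CCAAT boxes no longer lay nearer to the start than in the group before.

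The regions themselves sat mostly just before the start. Their median width was 412 bp (range 306 to 1477 bp), and 2278 of 2601 (87.6%) held exactly 1 peak from each library. Peaks were intervals of fixed length, so the width reflects how far apart the joined summits lay and not how narrow the signal was. Exactly 1 peak per library was about as common in regions of all 4 libraries inside genes (84.4%) and between genes (86.8%). The median distance from the midpoint to the nearest gene end was 99.5 bp, and 83.5% lay within 250 bp. The strand of every gene nearby was known for 2130 regions, and 2094 of these (98.3%) were at a transcript start and 36 (1.69%) at a transcript end only. Starts were less frequent among regions near gene ends with fewer libraries: 67.0% with a peak in 1 library, 86.0% with 2 and 94.0% with 3. Measured from the start, the best summit lay at a median of -85 and -83 bp in mTEClo and -95.5 and -89.5 bp in mTEChi. Between 77.4% and 79.6% of summits lay upstream of the start.

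**Figure D3:**
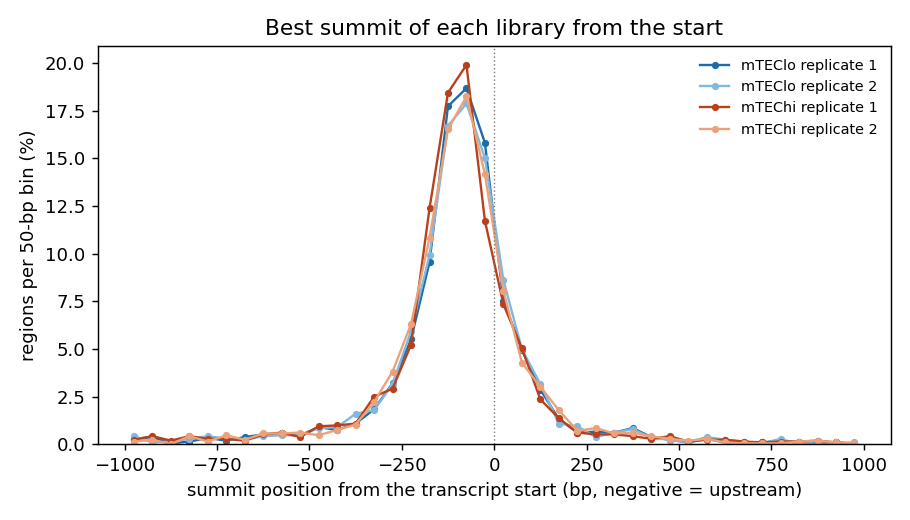
Share of the 2126 regions with a listed start (y axis, % per 50-bp bin) against the position of each library's best summit from that start (x axis, bp, negative upstream). All 4 libraries have their highest bin between 50 and 100 bp upstream, and their medians run from -83 to -95.5 bp.

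Some of the regions lay near a pair of starts on opposite strands. Of the 2130 regions, 371 (17.4%) had starts of both strands within 1 kb of their midpoint. Such pairs are called divergent here, although the region was not required to lie between the 2 starts. Of the 2524 genes with such a region at their start, 738 (29.2%) had a start of the opposite strand within 1 kb of their own. Measured in the same way, 1008 of the 13933 other genes with a listed start (7.23%) had one. A region near 2 starts counts for both genes, which raises the first share. The divergent pair with the best ranks was Xab2, of splicing and transcription-coupled repair, with Pet100, an assembly factor of cytochrome c oxidase. It scored 46.1, 36.6, 98.5 and 34.8. Styxl1 with Mdh2, shown above, scored 40.4, 39.6, 70.2 and 25.6. Further pairs named by rank were Grk4 with Nop14, Cep57 with Fam76b, and Cdnf with Hspa14.

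The score deposited with each peak is the authors' own, a −log10 of a p or q value from their peak caller, and it serves here only to rank peaks within a list. The best peaks of the 2601 regions had median scores of 9.67, 6.57, 11.7 and 7.23. Their median place was within the top 4.46%, 7.99%, 3.74% and 3.83% of their lists. All peaks in the regions, further peaks of a library included, made up 3.05%, 3.91%, 3.72% and 3.22% of each list. Of the best peaks, 8.11%, 14.6%, 7.92% and 9.84% came from the lower-scoring part of a list, below its median. The median of the worst rank over the 4 lists was 24.3% from the top for the 2601 regions. It was 51.8% for the regions in all 4 libraries inside genes and 55.4% for those between genes.

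**Figure D4:**
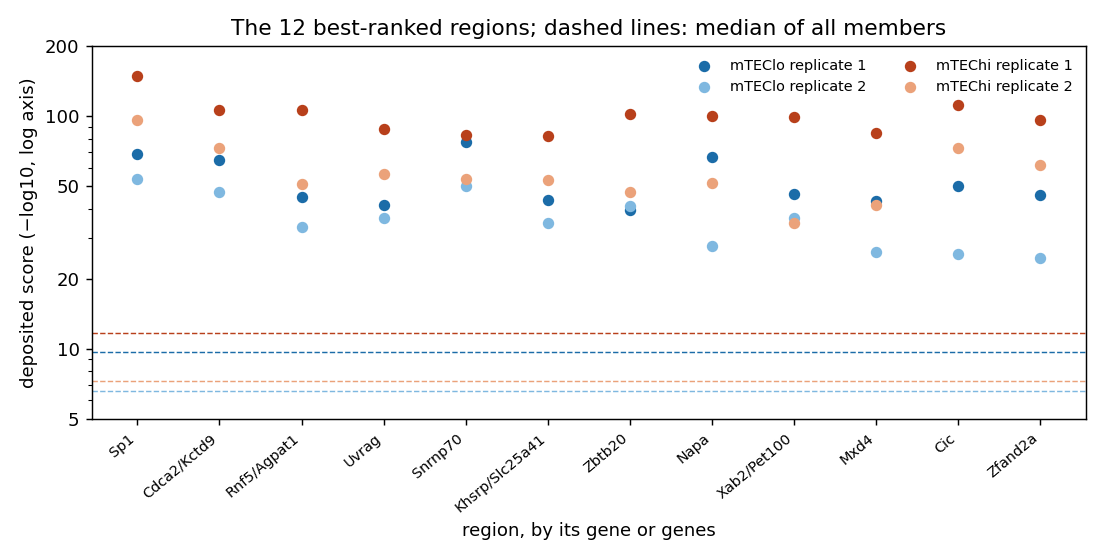
Deposited score (y axis, −log10, log axis) of the 12 regions with the best worst rank (x axis, by gene) in each of the 4 libraries, with dashed lines at the median of all 2601 regions. All points lie above the medians, which run from 6.57 to 11.7.

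Sp1, the factor that binds GC boxes, led the 12 regions with the best worst rank. Its region, chr15:102405709-102406186, scored 68.4, 53.4, 148 and 96.3, which made it number 3, 5, 3 and 2 of the lists. Cdca2, a mitotic chromosome protein, shared its region with Kctd9 and scored 64.6, 47.0, 106 and 72.9. Snrnp70 scored 77.2, 50.1, 82.8 and 53.4, the highest mTEClo replicate 1 value of any of the 2601 regions. Zbtb20, a transcriptional repressor, scored 39.6, 41.0, 102 and 47.0. Cic, a repressor below receptor tyrosine kinases, scored 49.8, 25.4, 112 and 72.5, with a median summit 400 bp after the listed start, whereas those of the 12 with another listed start nearby had it upstream. The rest were Rnf5 with Agpat1, Uvrag, Khsrp with Slc25a41, Napa, Xab2 with Pet100, Mxd4 and Zfand2a. Within each of these 12 regions mTEChi replicate 1 had the highest score, and its list also had the highest scores at the top, so that scores are not comparable between libraries.

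The order of the regions agreed in part between libraries. Spearman's rho of the scores over the 2601 regions was 0.511 between the mTEClo libraries and 0.672 between the mTEChi libraries. Between the populations it ran from 0.484 to 0.584, and mTEClo replicate 1 was closer in order to each mTEChi library (0.584 and 0.549) than to its own replicate. For regions in all 4 libraries inside genes the 6 values ran from 0.230 to 0.509, and for those between genes from 0.212 to 0.463. These are descriptions across regions that share their libraries. Summits also lay closer together at gene ends: the 4 best summits of a region spanned a median of 105 bp, against 152 bp inside genes and 156 bp between genes.

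The 2 cell populations could be compared in the place and the order of peaks, since presence was fixed by the choice. Summits of the mTEChi libraries lay slightly farther outside the gene. The median offset from the nearest gene end, negative outside the gene, was -50 and -47 bp in the mTEClo libraries (mean -48.5) and -59 and -51 bp in the mTEChi libraries (mean -55.0). The difference of 6.50 bp had p = 0.333 in the two-sided exact permutation test over libraries, the smallest that 2 against 2 can give, and the populations did not overlap. Against a median span of 105 bp between the summits of a region, the shift is small. It was 13 bp without mTEChi replicate 2 and 4 bp without mTEChi replicate 1. When peaks scoring below the median of their list were dropped, it was 2.50 bp, with p = 0.667 in the same permutation test. The median distance between the summits of a pair of libraries was 49 bp for the mTEClo pair and 46 bp for the mTEChi pair, and 46, 49, 48 and 53 bp for the 4 pairs across populations. The difference of -1.50 bp between pairs within and across populations (means 47.5 and 49.0 bp) had p = 0.667 in the exact permutation test, and it turned to 2.50 bp without mTEChi replicate 2.

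The rank order between the populations was close to that of all regions found in the 4 libraries. When the best peaks were ranked among all 5140 regions found in all 4 libraries, both mTEClo libraries ranked higher than both mTEChi libraries in 426 of the 2601 regions (16.4%), against 19.9% of the 5140. Both mTEChi libraries ranked higher in 566 (21.8%), against 20.4% of the 5140. Ranked among the 2601 alone, the counts were 503 and 484, so that the tilt towards mTEChi turned into a small one towards mTEClo. Neither count stood far from the share of all 5140 regions. Those include the 2601 themselves, which draws the shares together.

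The regions with the widest rank gaps are named as examples. Towards mTEClo they were those of Crp, an acute-phase protein of liver, Zfp112, Cyp2j9 and Efcab2. The Crp region scored 17.3 and 13.8 in mTEClo against 5.07 and 4.34 in mTEChi. The Cyp2j9 region, of a cytochrome P450, scored 8.31 and 11.7 against 2.38 and 2.03. Towards mTEChi they were those of Tfb2m with Cnst, Poldip3, Rpl3 and a region shared by BC029722, Eif6 and Mmp24. The Tfb2m region, of a mitochondrial transcription factor, scored 4.46 and 2.23 in mTEClo against 17.0 and 16.5 in mTEChi. The region of Rpl3, a ribosomal protein, scored 2.74 and 3.94 against 24.4 and 10.2. The ranks of the populations do not overlap in any of these regions, since they were picked for that.

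Over the genome, 3125 of 20665 protein-coding genes (15.1%) had such a region within 1 kb of an end, and 577 regions were within reach of 2 genes. The share by chromosome ran from 12.2% on chromosome 14 to about 19% on chromosomes 8 and 19. Genes of general cell function had a region more often than this. Gene lists are read here against the 15.1% only, as counts with no test.

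**Figure D5:**
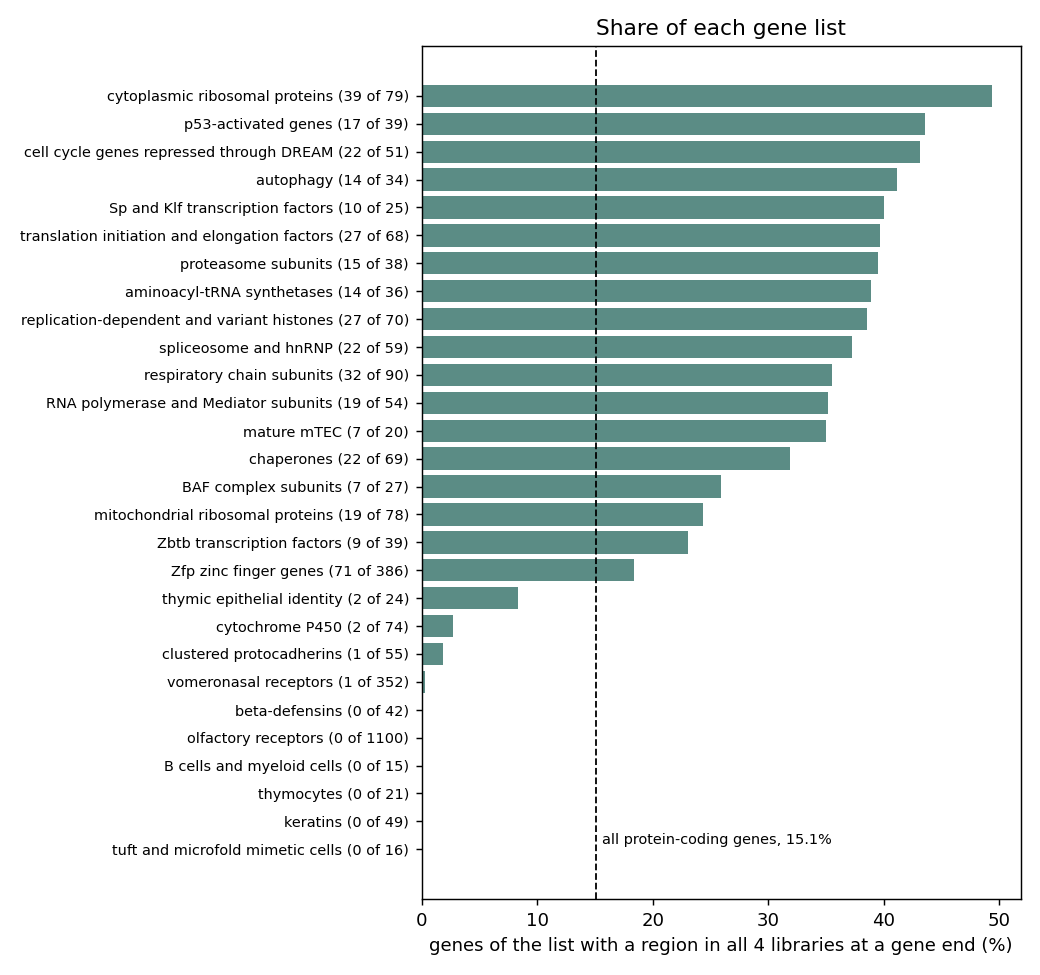
Share of each gene list with at least 1 of the 2601 regions within 1 kb of a gene end (x axis, %), with counts beside each name and a dashed line at the 15.1% of all protein-coding genes. Cytoplasmic ribosomal proteins stand highest at 49.4%, and 6 lists stand at 0.

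Cytoplasmic ribosomal proteins had the highest share of the 28 lists. Of these genes 39 of 79 (49.4%) had a region, with Rps19 best ranked at 28.9, 19.8, 46.2 and 24.2. ETS cores stood in 50% of their 20 listed promoters, against 21.2% of all member promoters. Of translation factors and their regulators 27 of 68 (39.7%) had one, among them Eif4a1, an RNA helicase of initiation, at 28.8, 12.1, 65.0 and 33.3. Aminoacyl-tRNA synthetases had 14 of 36 (38.9%), proteasome subunits 15 of 38 (39.5%) and chaperones 22 of 69 (31.9%). Autophagy genes had 14 of 34 (41.2%), led by Uvrag at 41.3, 36.5, 87.9 and 56.5.

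The mitochondrial and nuclear lists spread more widely. Respiratory chain and ATP synthase subunits and assembly factors had a region in 32 of 90 genes (35.6%), with Atp5b at 27.1, 20.4, 63.8 and 17.5. Mitochondrial ribosomal proteins had 19 of 78 (24.4%), a smaller share than the cytoplasmic ones, although in single libraries 55.1% to 70.5% of them had a peak within 1 kb, against 37.1% to 48.9% of all protein-coding genes. Spliceosome and hnRNP genes had 22 of 59 (37.3%), and RNA polymerase and Mediator subunits 19 of 54 (35.2%). Sp and Klf factors had 10 of 25 (40%), Zbtb factors 9 of 39 (23.1%) and the large Zfp zinc finger family 71 of 386 (18.4%), which is near the share of all genes.

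Promoters of histone and cell cycle genes often held repeated CCAAT boxes. Histone genes had 27 of 70 (38.6%), and a region within reach of 2 genes counts for both, as for H2bc12 and H2ac12. Of the 19 listed member promoters of histone genes 15 held a CCAAT box and 11 held at least 2, while 52.6% held a TATA box, against 5.31% of all member promoters. The best of them were H4c2 (17.9, 11.0, 26.6 and 14.1) and the divergent pair H2bc12 and H2ac12 (14.2, 12.4, 31.4 and 21.2). Cell cycle genes known to be repressed through DREAM had 22 of 51 (43.1%), among them Ccna2, Ccnb1, Cdc25c, Aurka, Top2a and Mybl2. Of their 14 listed promoters 12 held a CCAAT box and 9 held at least 2. The Ccna2 region, shared with Bbs7, scored 19.7, 16.9, 22.5 and 11.3.

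Genes that p53 activates had a region in 17 of 39 cases (43.6%), about the share of the DREAM genes. They included Aen, Apaf1, Bbc3, Btg2, Ccng1, Fas, Fdxr, Gadd45a and Sesn2, genes of apoptosis, arrest and stress control. Aen scored 22.3, 12.4, 27.6 and 17.1. Ddit4, an inhibitor of mTOR signalling, scored 12.7, 15.0, 18.7 and 13.2, and Fdxr, a mitochondrial reductase, 22.8, 9.65, 65.7 and 24.6. Of their 13 listed promoters 7 held a CCAAT box (53.8%, near the 54.6% of all member promoters), 11 a GC box (84.6% against 72.8%) and 3 a p53 half-site (23.1% against 6.07%). These counts are small, and the half-site share varied between short lists. It stood in 3 of 12 listed promoters of mitochondrial ribosomal proteins (25%) and in 1 of 20 of cytoplasmic ones (5%). None of the 13 promoters of p53-activated genes held the full p53 element, which stood in 9 of all 20085 promoters. The best known p53 targets were not among them: the genes Cdkn1a, which encodes p21, and Mdm2, which encodes the ligase that degrades p53, had no region in all 4 libraries within 1 kb of an end. Sites farther than 1 kb from a gene end could not enter the set, so this says nothing of them. Cdkn1a had a peak within 1 kb of an end in mTEClo replicate 1 (3.03) and in mTEChi replicates 1 and 2 (5.83 and 4.74) and none in mTEClo replicate 2. Mdm2 had one in mTEChi replicates 1 and 2 (5.18 and 4.34) and in neither mTEClo library.

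Trp53 itself was within reach of a region, chr11:69579195-69579526, that belongs to the neighbouring start of Wrap53. It scored 21.6, 6.81, 12.4 and 8.58. BAF complex subunits had a region in 7 of 27 genes (25.9%): Actl6a, Arid1a, Bcl7c, Bicra, Dpf2, Smarca4 and Smarcc1. Smarca4, an ATPase of the complex, scored 11.3, 7.15, 8.46 and 10.6. Smarcc1, which encodes BAF155, scored 5.12, 3.94, 6.68 and 3.0, a place of 2106 in the order of the 2601. Of the 6 listed BAF promoters 1 held a CCAAT box, against 54.6% of all member promoters.

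Genes that define thymic epithelium form a short list, so its share rests on few genes. Of 24 thymic epithelial identity genes 2 had a region (8.33%, against 15.1% of all protein-coding genes), Pax1 and Six4. A region needs a peak in each of the 4 libraries, so a lower share than in single libraries follows for any list. A peak within 1 kb of an end was present for 13, 12, 14 and 12 of the 24 in the 4 libraries (50% to 58.3%), against 48.9%, 37.1%, 38.4% and 38.6% of all protein-coding genes, and 23 of the 24 had one in some library. Without mTEClo replicate 2 the count rose from 2 to 5 of 24, and the list then stood above the share of all genes, 19.6%. It fell to 0 at a gene end distance of 500 bp and with the 10000 highest-scoring peaks of each list. With peaks above each list's median score, and with summits within 75 bp joined, it was 1. Foxn1, the master regulator of thymic epithelium, had a peak within 1 kb of an end in mTEClo replicate 2 alone (3.48). Aire had a peak in every library but no joined region: the summits near its start were in mTEClo replicate 2 and both mTEChi libraries, and that of mTEClo replicate 1 was at the other end of the gene. Of 20 genes of mature medullary cells, also a short list, 7 had a region (35.0%): Relb, Cd74, Cd274 and the MHC class II genes H2-Aa, H2-Ab1, H2-DMb1 and H2-Eb1. Relb, an NF-kB subunit required for these cells, scored 45.0, 18.9, 83.3 and 31.7. H2-Aa scored 16.0, 11.6, 28.7 and 11.3.

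Several lists had 0 regions. Among genes of epithelium these were the 49 keratins and the 16 genes of tuft and microfold mimetic cells, which are subsets of medullary epithelium. In single libraries 22.4% to 42.9% of the keratins had a peak within 1 kb of an end, against 37.1% to 48.9% of all protein-coding genes. The 42 beta-defensins and 1100 olfactory receptors, genes of other tissues, also had 0, and cytochrome P450 genes had 2 of 74. The single vomeronasal receptor gene counted, Vmn1r4, shares its region with Nt5c3. Of 21 thymocyte genes 0 had a region, and between 3 and 4 per library had a peak within 1 kb of an end. Of 15 B cell and myeloid genes 0 had a region, and 3, 3, 0 and 2 had a peak. In bulk libraries a low share of cells and a weak signal per cell cannot be told apart.

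The 36 regions at a transcript end only were a small and weaker group. Their median place in the order of worst rank was 1862.5 of 2601. The best ranked was at the end of Tmem107, a protein of the ciliary transition zone, at chr11:69073097-69073791, with 8.23, 7.15, 30.0 and 13.5. The next was at the end of Bcat2, an enzyme of branched-chain amino acid breakdown, with 20.5, 14.8, 8.32 and 8.52. Rab42, Eef1b2 and Slc11a1 followed.

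At the 1 kb limit the last regions inside were those of Azin1, at 1000 bp, with scores of 4.10, 3.48, 16.2 and 4.24, and S1pr2, at 998.5 bp, with 4.60, 4.40, 3.62 and 2.88. The first outside were near Tmem255b, at 1007.5 bp, with 4.99, 7.82, 8.90 and 3.79, and Foxo3, at 1009.5 bp, with 4.69, 11.0, 19.4 and 4.18. The values on both sides of the limit overlapped.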

How the data were processed

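CUT&RUN was run on mTEClo and mTEChi, 2 libraries each, and groups and replicate numbers came from the sample titles. Per the submitters' processing notes the tools were MACS2 2.2.7.1, Bowtie2 2.2.9, SAMtools 1.9 and Picard, with mm10; of settings and controls nothing is stated in the sources. The deposited lists hold fixed intervals of 301 bp around summits, called per library (69359 to 89809 peaks). The authors deposited a score with each peak, read as the −log10 of a p or q value, not stated which, with a minimum of 2.00. Read depth is unknown, and the Wilson interval covers counting error only.

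Intervals sharing 1 bp were joined. Gene intervals and promoter sequences came from RefSeq (GRCm38.p6). Strand was known for 79.6% of genes, chromosome 18 promoters were not used here, and exons were not assigned. The best-scoring summit of a library stood for it. A two-sided exact permutation test compared the libraries' values, and its p-values measure only the spread between libraries, which may be technical. The members, gene lists and tests were chosen with earlier results of these data known. The CGCG palindrome, the reversed letters, box counts and spacing, and the CpG ratio of 0.6 were added after seeing the data. Named regions were the 12 with the best worst rank, up to 3 per gene list, 5 at transcript ends and 5 within 1 kb of starts on both strands. Others were 2 on each side of the 1 kb limit, 4 per direction with the widest rank gap between populations, and 6 fixed genes. The joining and test steps were tested on simulated data. Python 3.11.15, numpy 2.4.6, pandas 2.3.3 and matplotlib 3.10.9 were used.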

Additional observations from a re-analysis of the deposited data

How the results depend on the processing

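The count of 2601 regions stayed within 1.5 times under gene end distances of 500 bp and 2 kb, any summit within 1 kb, peaks above each list's median score, and each library left out in turn (2820 to 3447 regions in the other 3). It fell to 978 regions and 1228 genes with the 10000 highest-scoring peaks of each list, and to 1517 regions and 1839 genes when summits within 75 bp were joined. The share of promoters with 2 or more CCAAT boxes was 34.2% with peaks above the median score, 38.7% with the 10000 highest and 33.5% with summits within 75 bp joined, and 26.4% to 28.6% with a library left out; these settings for the share were chosen after seeing the data. The summit offset difference of 6.50 bp kept its sign in every setting run. It was 2.50 bp with peaks above the median score and with summits within 75 bp joined, 3.25 bp with the 10000 highest, and 4 to 13 bp with a library left out. Among settings that kept all 4 libraries, the exact permutation test gave p = 0.667 in the first 3 named. The same test gave the same p at a gene end distance of 500 bp (6 bp). In each of these, another split of the 4 libraries gave a difference at least as large, so the separation of the populations did not hold throughout. The summit distance within minus across populations ran from -4 to 2.50 bp with a library left out, and it turned positive without mTEChi replicate 2; the cause was not tested. Of the 28 gene lists, 17 to 19 stood above the share of all genes in each setting.

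With the replicate block the offset difference was 6.50 bp with p = 0.500 in the exact permutation test, the smallest it can give, and the summit distance difference was -2 bp. Deviations of same-numbered libraries did not correlate over the regions (r of -0.03 for offsets and 0.03 for log scores), which gave no sign that the numbers pair the libraries. Leaving out 1 library leaves that population with 1 value, assumed to vary like the other.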

Other observations

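Of the 2085 regions near gene ends with a peak in exactly 3 libraries, 866 (41.5%) lacked it in mTEClo replicate 2, the shortest list, 618 in mTEChi replicate 2, 365 in mTEChi replicate 1 and 236 in mTEClo replicate 1. The clustered protocadherins, cell adhesion genes, had 1 of 55 genes with a region in all 4 libraries, Pcdhgc3. A peak within 1 kb of an end was present for 24 and 22 of the 55 in mTEClo replicates 1 and 2. It was present for 3 in mTEChi replicate 1 and for 22 in mTEChi replicate 2. A peak counts for every gene with an end within 1 kb, so in a gene cluster 1 peak can add many genes. The number of separate peaks behind these counts was not determined, and they do not measure how far the libraries differ.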
